A study of Mus musculus with 4 samples.

Results

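The comparison described here is of SB431542 against no inhibitor in control reprogramming cells, taken over every gene entry with at least 1 TPM (transcripts per 10⁶, a read level scaled by gene length and library) in either library, which held 13144 of the 27304 entries in the table. The cells were mouse embryonic fibroblasts of C57BL/6 strain background on day 5 of reprogramming. All carried SeVdp(KOSMaB), a Sendai virus vector that delivers Klf4, Pou5f1, Sox2 and Myc, and were selected with 2 µg/mL blasticidin S. The treated cells expressed Kusabira Orange, a fluorescent protein used as the control transgene, and received 10 µM SB431542 (1 library). The untreated cells expressed Kusabira Orange and received none (1 library). A second pair of libraries, from cells expressing Osr2 with 10 µM SB431542 and without it, is given only side by side and shares no library with the control pair. The labels give neither the clone nor the number of cultures behind a library, and with 1 library per group no difference below has a replicate check, an estimate of spread or a test.

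SB431542 blocks the kinases of the type I receptors ALK5 (Tgfbr1), ALK4 (Acvr1b) and ALK7 (Acvr1c), through which TGF-β, activin and nodal signal. These receptors phosphorylate Smad2 and Smad3, which enter the nucleus with Smad4 and act at genes of the matrix, of the contractile cytoskeleton and of the pathway's own feedback. In fibroblasts TGF-β is known as an inducer of collagen and of the myofibroblast state, and inhibitors of its receptors are used to aid reprogramming of fibroblasts.

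The quantity ranked was the TPM with SB431542 over the TPM without it. Whole reads could be recovered behind the TPM values, with totals of 13133009 reads with SB431542 and 17977507 without. No entry had more reads with SB431542 than without it. The treated reads may therefore lie within the untreated column, but only numbers of reads are known and this cannot be settled here. The TPM ratio is proportional to the number of treated reads as a share of the untreated reads, which is the value given for each gene. This share had a median of 76.6% over the 13068 entries ranked, with quartiles of 69.0% and 83.3%. Differences are given as log2 ratios relative to that median gene, which itself had 1.40 times the TPM with SB431542 that it had without (log2 0.49). Rises are capped: equal reads, a share of 100%, correspond to a relative log2 ratio of 0.39, or 1.31-fold. The lowest decile of ranks held 1306 entries (9.99%), with shares up to 60.5% and relative log2 ratios of -0.34 or less, and the highest decile held 1307 (10.0%), with shares of at least 89.5% and relative log2 ratios of at least 0.23. The highest decile was shallower, with a median of 33 untreated reads against 335 in the lowest. At least 100 untreated reads were found for 461 entries of the highest decile and 952 of the lowest. A relative log2 ratio of -1 or less was found in 149 entries (1.14%) and one of 1 or more in none, as the cap prescribes. The cap was reached by 557 entries (4.26%), of which the deepest had 95 untreated reads. On TPM as deposited, 686 entries were lower with SB431542, so a gene whose relative log2 ratio lies between -0.49 and 0 had the higher deposited TPM with SB431542 and yet ranks below the median gene. If the treated reads are taken out of the untreated column, the order of genes is the same and folds are larger, and these are given as folds after read subtraction. List medians of the relative log2 ratio then become -2.29 for fibrillar collagens, -1.26 for TGF-β targets, -1.23 for contractile genes, -1.48 for BMP genes, -2.87 for mitochondrially encoded genes and 0.40 for mitosis genes. Intervals of shares below are exact 95% intervals for a ratio of read numbers from separate libraries, cover counting error only, and would be narrower if the columns were nested.

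**Figure D1:**
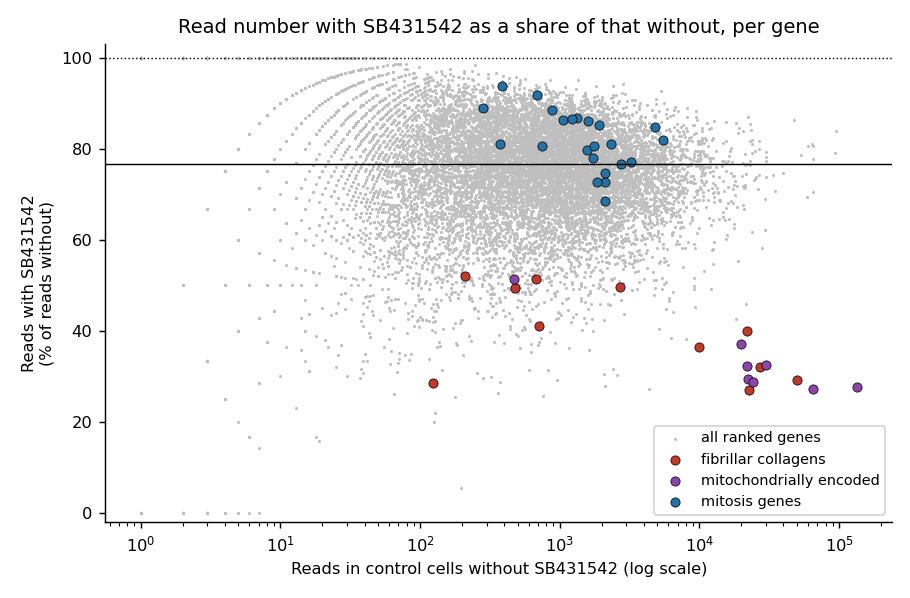
Reads with SB431542 as a percentage of the reads without it (vertical axis) against the reads without it (horizontal axis, log scale), 1 grey point per ranked gene, with fibrillar collagens in red, mitochondrially encoded genes in purple and mitosis genes in blue. The solid line is the median of 76.6% and the dotted line the upper limit of 100%, which no gene passes. All 11 fibrillar collagens and all 8 ranked mitochondrial genes lie below 60.5%.

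Promoter windows of 3 genes at the ends of the ranking are shown because the genes stand at the ends of the ranking, for the reader to see the letters searched: Col3a1, the lowest of the abundant fibrillar collagens, and Cyp1a1 and Ahrr, both among the 20 highest. Each runs from 250 bases before the gene's start to 50 after it, on the gene's strand, from RefSeq on GRCm38.p6. Capitals mark matches on either strand to CAGACA (a Smad motif), GGAATG (a TEAD motif) and GCGTG (the core of the aryl hydrocarbon receptor motif, added after Cyp1a1 and Ahrr had been seen). The windows are chr1:45311288-45311587 on the plus strand for Col3a1, chr9:57697363-57697662 on the plus strand for Cyp1a1 and chr13:74292282-74292581 on the minus strand for Ahrr.
Col3a1: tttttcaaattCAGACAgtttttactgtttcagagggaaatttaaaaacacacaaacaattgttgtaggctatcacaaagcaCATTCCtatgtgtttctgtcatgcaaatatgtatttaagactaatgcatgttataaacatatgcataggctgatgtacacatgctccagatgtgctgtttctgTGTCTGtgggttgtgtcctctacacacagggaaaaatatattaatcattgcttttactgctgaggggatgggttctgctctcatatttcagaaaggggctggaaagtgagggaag
Cyp1a1: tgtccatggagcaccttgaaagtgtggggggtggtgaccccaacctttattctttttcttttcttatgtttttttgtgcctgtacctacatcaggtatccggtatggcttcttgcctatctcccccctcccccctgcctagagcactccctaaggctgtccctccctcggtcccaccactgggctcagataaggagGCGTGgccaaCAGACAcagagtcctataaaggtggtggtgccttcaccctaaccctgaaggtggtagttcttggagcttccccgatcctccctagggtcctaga
Ahrr: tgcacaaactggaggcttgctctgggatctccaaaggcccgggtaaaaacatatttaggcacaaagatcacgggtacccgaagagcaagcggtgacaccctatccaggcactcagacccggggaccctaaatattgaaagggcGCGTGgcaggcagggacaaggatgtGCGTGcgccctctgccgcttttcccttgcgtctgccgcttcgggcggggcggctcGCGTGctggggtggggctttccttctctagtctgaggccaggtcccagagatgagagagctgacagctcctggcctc

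The Col3a1 window held 2 matches to CAGACA and 1 to GGAATG. The Cyp1a1 window held 1 match to GCGTG and 1 to CAGACA, and the Ahrr window held 3 to GCGTG. None of these motifs is rare: over the 7899 ranked genes with a single window, CAGACA was found in 15.4%, GGAATG in 11.5%, GCGTG in 53.4% and TGANTCA, the AP-1 motif, in 4.19%. In the lowest decile the shares were 15.9% for CAGACA, 13.6% for GGAATG, 49.5% for GCGTG and 3.95% for TGANTCA. In the highest decile they were 19.9%, 11.3%, 44.4% and 4.53% in the same order. A match describes letters in the window and no binding was measured.

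Transcripts of fibrillar collagens, the load-bearing fibres of connective tissue, stood lowest among the lists of nuclear genes. All 11 measured members were in the lowest decile, with a median relative log2 ratio of -0.94 and a median share of 40.0% of the untreated reads, against 76.6% over all ranked entries. All 11 were also lower on TPM as deposited, where their median log2 ratio was -0.45. Col3a1 (chromosome 1, 45311538 to 45349706), the chain of type III collagen, had 78.7 TPM with SB431542 and 158 TPM without. It stood at 6139 against 22644 reads, a share of 27.1% (interval 26.4 to 27.9%), which is 2.82-fold lower relative to the median gene and 8.78-fold lower after read subtraction. Both chains of type I collagen lay close to it. Col1a1 had 280 TPM with SB431542 and 522 without, a share of 29.2%. Col1a2 had 88.3 TPM with SB431542 and 150 without, a share of 32.0%.

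The regulatory chains of type V collagen, which set fibril width, followed with smaller differences. Col5a2 had 47.9 TPM with SB431542 and 71.5 without (share 36.5%), and Col5a1 had 130 and 177 TPM (share 40.0%). Col24a1, at 0.578 against 1.11 TPM and only 35 against 123 reads, had a share of 28.5% with an interval that reached up to 41.7%. It passed the minimum of 1 TPM only through the untreated library. The remaining members, Col11a1, Col27a1, Col5a3, Col11a2 and the cartilage collagen Col2a1, lay between 41.0% and 52.1%.

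Of the 18 measured collagen-modifying enzymes, 10 were in the lowest decile and 1 in the highest, with a median relative log2 ratio of -0.38 (0.12 as deposited, where 4 of the 18 were lower). Lox, the lysyl oxidase that starts collagen cross-linking, had 7.35 TPM with SB431542 and 13.8 without, a share of 29.1%. Its relatives differed: Loxl1 had a share of 49.3% and Loxl3 of 54.7%, while Loxl2, at 15.9 TPM with SB431542 and 10.7 without, had 81.2%. Plod2, a lysyl hydroxylase, was at the other end of the list with 24.8 TPM with SB431542 and 14.8 without, a share of 91.2%.

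Other matrix genes stood lower as a group than the median gene, with 17 of 34 in the lowest decile and none in the highest (median relative log2 ratio -0.34, or 0.15 as deposited, where 9 of the 34 were lower). Col8a1, a short-chain collagen, had 1.72 TPM with SB431542 and 3.27 without, a share of 28.7%. Col16a1, a fibril-associated collagen, had a share of 35.7% and Thbs1, a matricellular protein that can activate latent TGF-β, had 161 TPM with SB431542 and 206 without, a share of 42.5%. Tnc, at 96.4 against 106 TPM, and Sparc, at 97.2 against 104 TPM, had shares of 49.3% and 50.8%. The microfibril gene Fbn1 (76.2%) lay just below the median gene, and the small proteoglycan genes Dcn (79.0%) and Ogn (86.8%, from 33 against 38 reads) lay above it. Among matrix proteases and their inhibitors, 3 of 10 were in the lowest decile (Mmp23, Mmp14 and Mmp11) and the median relative log2 ratio was -0.29 (0.20 as deposited, where 2 of the 10 were lower).

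**Figure D2:**
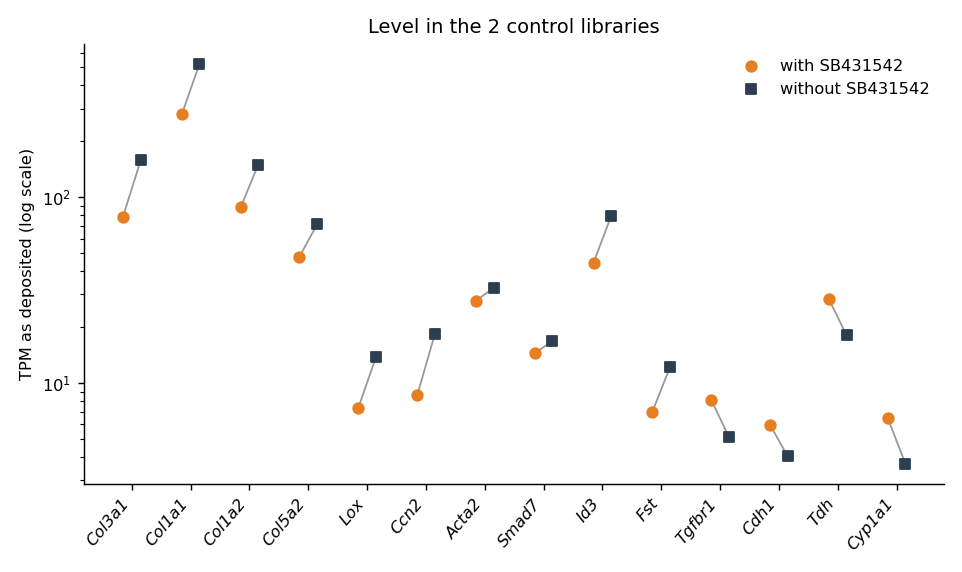
TPM as deposited (vertical axis, log scale) for 14 genes described in the text, with the SB431542 library as an orange circle on the left and the library without it as a dark square on the right of each pair. The median gene was 1.40 times higher with SB431542 on this scale, and the collagens, Lox, Ccn2, Acta2, Smad7, Id3 and Fst lie lower with SB431542 all the same.

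The inhibitor's own targets were not low. Of the 3 receptors, Tgfbr1 had 8.13 TPM with SB431542 and 5.14 without (share 86.1%), and Acvr1b had 29.4 and 21.0 TPM (share 76.3%), while Acvr1c had 0 reads in both libraries, which allows up to 0.228 reads per 10⁶ reads with SB431542 and 0.167 without (3 reads, counting error only). Of 9 other receptors of the family, Tgfbr3 (share 59.3%), a co-receptor, and Acvr1 (59.5%), a BMP and activin type I receptor, were in the lowest decile. Tgfbr2, the TGF-β type II receptor, had a share of 66.4%, the activin type II receptors Acvr2a and Acvr2b had 68.7% and 68.0%, and Bmpr2, the BMP type II receptor, had 74.3%. Acvrl1 (63.6%, from 63 against 99 reads) and its co-receptor Eng (76.2%) were low in reads, and Bmpr1a, a BMP type I receptor, had the highest share at 88.2%.

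Among ligands and their latency proteins, 7 of 15 were in the lowest decile and none in the highest (median relative log2 ratio -0.26, or 0.23 as deposited, where 6 of the 15 were lower). Inhbb and Inhba, whose products form activins, had 19.1 TPM with SB431542 and 24.2 without (share 42.9%), and 8.49 and 8.96 TPM (share 51.6%). Tgfb1 had 3.84 TPM with SB431542 and 4.49 without, a share of 46.7%, against 64.1% for Tgfb3 and 72.4% for Tgfb2. Lrrc32, which holds latent TGF-β at the cell surface, had 29.6 TPM with SB431542 and 32.6 without (share 49.5%). The counting intervals were 35.1 to 61.5% for Tgfb1, 52.9 to 77.5% for Tgfb3 and 63.1 to 83.0% for Tgfb2, so that of Tgfb3 overlaps both others.

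Of the 8 Smads, the inhibitory pair stood apart from the transducers. Smad7, which blocks type I receptors and is itself induced by the pathway, had 14.5 TPM with SB431542 and 16.8 without, a share of 47.1%. Smad6, the inhibitor of BMP signalling, had 4.20 TPM with SB431542 and 4.81 without, a share of 47.6%. The receptor-regulated Smad2 and Smad3 had shares of 74.9% and 69.3%, Smad1, Smad5 and Smad9 of the BMP branch had 68.3%, 79.3% and 75.4%, and the common partner Smad4 had 63.9%. No receptor-regulated Smad was in the lowest decile.

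In the feedback list, 5 of 12 genes were in the lowest decile and none in the highest, with a median relative log2 ratio of -0.20 (0.29 as deposited, where 4 of the 12 were lower). Fst, the activin-binding follistatin, had 7.02 TPM with SB431542 and 12.2 without, a share of 31.3%. Bambi, a pseudoreceptor, had a share of 44.9% and Pmepa1, which sequesters Smads, had 55.1%, and its relative Ldlrad4 had 53.3%. The ubiquitin ligases Smurf1 (71.8%) and Smurf2 (73.4%) and the follistatin-like genes Fstl3 (74.7%) and Fstl1 (75.1%) lay close under the median gene, and the co-repressor Tgif1 (81.2%) above it. Of the Ski family, Ski had 62.0%, whereas Skil had 18.6 TPM with SB431542 and 11.3 without, a share of 89.5%.

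TGF-β targets were lower in most cases, with 24 of 41 in the lowest decile and 1 (Plod2) in the highest. Their median relative log2 ratio was -0.41, or 0.08 as deposited, where 16 of the 41 were lower. The list shares genes with the collagen, enzyme, other matrix, contractile, feedback, ligand and YAP/TEAD or SRF lists, among others. Counts of these lists are therefore not independent. Ccn2, a matricellular growth factor, had 8.58 TPM with SB431542 and 18.3 without, from 195 against 762 reads. Its share of 25.6% (interval 21.8 to 30.0%) is 2.99-fold lower relative to the median gene and 9.49-fold lower after read subtraction. The members spread widely: Tgfbi, a secreted matrix protein named for its induction by TGF-β, had 2.20 TPM with SB431542 and 1.60 without, from 66 against 88 reads, with an interval of the share of 53.7 to 104%.

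Genes of the contractile apparatus were in the lowest decile in 16 of 24 cases and in the highest in 1, with a median relative log2 ratio of -0.40 (0.09 as deposited, where 9 of the 24 were lower). Acta2, smooth muscle actin and the usual myofibroblast marker, had 27.7 TPM with SB431542 and 32.6 without, a share of 46.2%. Lmod1, an actin nucleator, had a share of 36.8% and Tpm2, a tropomyosin, of 42.0%, while Tagln had 58.4% with a wide interval of 39.5 to 85.5% from 45 against 77 reads. Cnn3, a calponin, had 44.0 TPM with SB431542 and 26.1 without (share 91.7%), and Flna, the actin cross-linker, had 79.4%. Of 13 genes driven by YAP/TEAD or SRF, 9 were in the lowest decile (median relative log2 ratio -0.37, or 0.12 as deposited, where 5 of the 13 were lower), among them Amotl2 at 40.4% and Axl at 46.6%.

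The BMP list had 9 of 14 members in the lowest decile and none in the highest, with a median relative log2 ratio of -0.51 (-0.02 as deposited, where 7 of the 14 were lower). It shares Bmp1, Smad6, Smad9 and Bambi with the enzyme, Smad and feedback lists. Id3, an inhibitor of differentiation that BMP signalling induces, had 44.5 TPM with SB431542 and 79.5 without, a share of 30.5%. Id1 (52.0%) and Id4 (50.4%) were also in the lowest decile, and Id2 was at 77.6%. The antagonist Nog had 35.0% from 14 against 40 reads.

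Of the 9 genes of the insulin-like growth factor axis, 7 were in the lowest decile (median relative log2 ratio -0.67, or -0.18 as deposited, where 7 of the 9 were lower). Igfbp7 had 81.2 TPM with SB431542 and 146 without, a share of 30.3%, and Igfbp5 had a share of 37.3%. The binding proteins Igfbp2, Igfbp3, Igfbp4 and Igfbp6 lay between 46.4% and 49.0%, and the receptor genes Igf1r and Igf2r at 79.8% and 74.3%. The receptor genes thus lay near the median share of 76.6% over all ranked entries, and the binding proteins lay below it. H19, also counted in this list, had 876 against 2071 reads (interval of the share 39.0 to 45.8%).

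Immediate early genes, which respond within minutes to growth factors and stress, were in the lowest decile in 13 of 19 cases (median relative log2 ratio -0.42, or 0.08 as deposited, where 5 of the 19 were lower). Ier5 had 45.6 TPM with SB431542 and 88.9 without, a share of 27.9%. Junb (50.7%), Fosl2 (49.4%) and Dusp1 (53.4%) were lower than the median gene too, and Fosb (75.6%) and Ier3 (78.4%) lay near it. Among 14 lineage genes of fat, cartilage, bone and muscle, 8 were in the lowest decile and 1 in the highest (median relative log2 ratio -0.38, or 0.11 as deposited, where 4 of the 14 were lower). The 1 in the highest was Bglap, from 4 reads in each library. Of the 11 lineage genes with at least 100 untreated reads, 6 were in the lowest decile and 0 in the highest. Cebpd (36.3%), Sox9 (41.0%) and Cebpb (43.6%) were the lowest lineage genes. Cytokine genes had 5 of 16 in the lowest decile, led among those with 100 reads by Ptx3, at 145 TPM with SB431542 and 206 without (share 38.2%), and interferon-stimulated genes had 8 of 24, led by Usp18 (44.2%). In the cell-cycle inhibitor and p53 list 5 of 20 were in the lowest decile, and Cdkn1c had 4.81 TPM with SB431542 and 8.54 without, a share of 30.7%. Cdkn2b, a known TGF-β target, had 48.8%, and Cdkn1a had 63.5%.

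**Figure D3:**
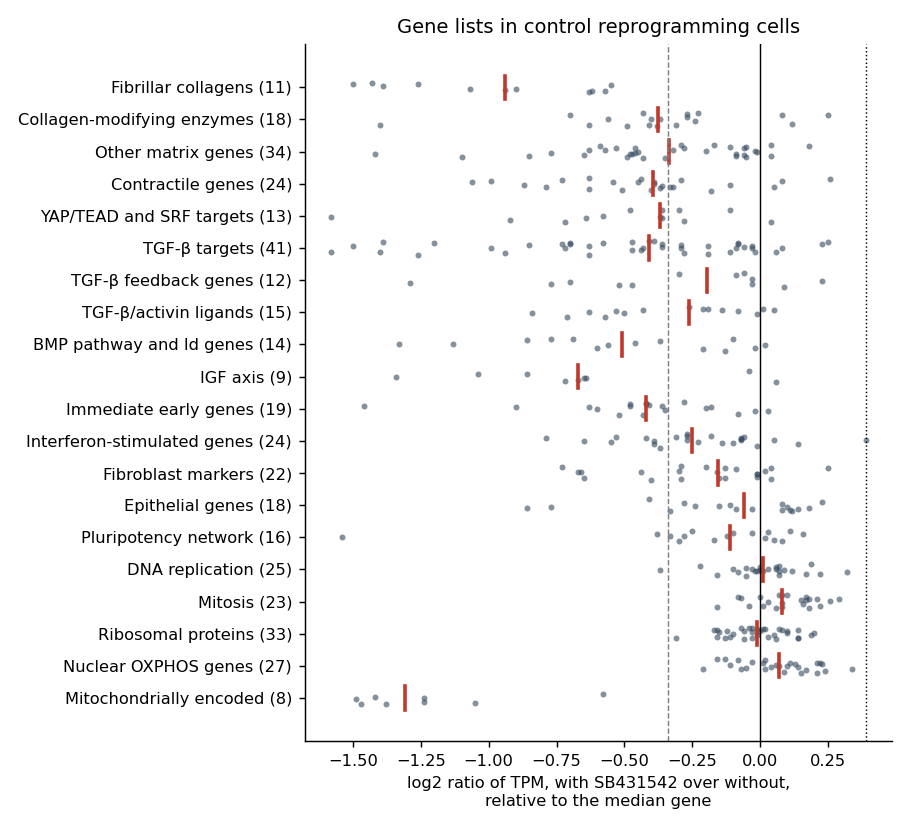
Relative log2 ratio of TPM, SB431542 over none (horizontal axis), for the measured members of 20 gene lists, 1 point per gene, with the number of genes in brackets. The red bar is the list median, the solid line the median gene, the dashed line the lowest decile (-0.34) and the dotted line the upper limit (0.39). Matrix and signalling lists lie left of the median gene, and mitosis and nuclear OXPHOS (oxidative phosphorylation) genes lie to its right.

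Markers of the cells and of reprogramming stood closer to the median gene. The label of fibroblast was checked on its markers: 22 of 24 fibroblast markers were measured, with Vim at 484 TPM with SB431542 and 424 without and Thy1 at 59.2 and 57.0 TPM. The list lay below the median gene, with 18 of 22 members below it, a median relative log2 ratio of -0.16 (0.33 as deposited) and 6 members in the lowest decile against 1 in the highest. Pdgfra had a share of 46.3%, Thy1 of 56.5%, Vim of 62.1% and Cd44 of 77.8%. Among 9 transcription factors of the epithelial to mesenchymal transition, Twist1 (48.3%) and Foxc2 (49.5%) were in the lowest decile, while Snai2 (79.7%) and Zeb1 (79.8%) were not. Epithelial genes, which rise during reprogramming, had 3 of 18 in the lowest decile and none in the highest, with a median relative log2 ratio of -0.06 that becomes 0.01 when summed reads set the scale. The side of the list depended on the low genes: its median percentile was 39.3, against 69.9 with a minimum of 5 TPM and 58.1 with at least 100 untreated reads, where the members in the lowest decile were 0 and 1. Cdh1, E-cadherin, had 5.97 TPM with SB431542 and 4.03 without (share 80.7%), and Epcam had 1.78 and 1.59 TPM from 31 against 51 reads. Cdh3, P-cadherin, was the lowest epithelial gene at 42.2%.

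Of 32 pluripotency genes only 16 were measured. Their median relative log2 ratio was -0.11, with 2 in the lowest decile. Klf2, a naive pluripotency factor also expressed elsewhere, had 6.47 TPM with SB431542 and 13.4 without, a share of 26.3%. Tdh, threonine dehydrogenase, had 28.3 TPM with SB431542 and 18.1 without (85.4%), and Sall4 had 59.0%. Nanog had 1 read with SB431542 and 4 without, too few to compare. The reprogramming factors, whose reads can come from the vector, had shares of 69.5% for Klf4, 73.8% for Myc, 77.7% for Sox2 and 80.9% for Pou5f1, a range inside the quartiles of all genes. Of 15 Wnt genes 3 were in the lowest decile, with Dkk2, an antagonist, at 0.849 TPM with SB431542 and 2.31 without, from 25 against 125 reads (interval of the share 12.5 to 30.9%).

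Markers of other cell types did not stand out together, in part because they were few. Of 15 macrophage markers 9 were measured, and their summed level was 38.3 TPM with SB431542 and 27.3 without, with Itgam at 0 reads in both. Of 13 endothelial markers 4 were measured, with sums of 21.5 TPM with SB431542 and 14.7 without and with Cdh5, Emcn, Sox17 and Sox18 at 0 reads in both. On the deposited scale of these sums the median gene was itself 1.40 times higher with SB431542. Relative to that gene, the macrophage list had a median log2 ratio of 0.08 and the endothelial list of 0.07. Trophoblast (5 of 11), neural (5 of 10) and keratinocyte (4 of 9) markers had medians within 0.08 of the median gene. Endoderm markers had 3 of 12 measured, of which Gata6 (43.4%) and Pdgfra, also a fibroblast gene, were in the lowest decile. In bulk RNA, fewer cells of a type and less RNA per cell cannot be told apart.

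Housekeeping and growth genes stood near or above the median gene. In the mitosis list 19 of 23 were above it, none was in the lowest decile and 2 were in the highest (median relative log2 ratio 0.08). Ttk, a spindle checkpoint kinase, had 9.29 TPM with SB431542 and 5.40 without (93.8%), and Aurkb was the lowest at 68.6%. DNA replication genes had a median of 0.01, with Ccne2 at 95.5% and Fen1 at 59.4%. Nuclear genes of oxidative phosphorylation had a median of 0.07, with none of 27 in the lowest decile and 3 in the highest. Cholesterol synthesis genes had a median of 0.05 with none of 26 in the lowest decile, Fdps lowest at 64.8% and Msmo1 highest at 91.7%, ribosomal protein genes had -0.01 with none of 33 in either decile, and glycolysis genes had -0.05, with 3 of 23 in the lowest decile. Histone genes had -0.03 over 17 members, several of which share near-identical sequence, so that their reads may be split between copies. With summed reads as the scale the last 3 medians were 0.06, 0.02 and 0.04. Stress genes of the unfolded protein and ATF4 responses had a median of -0.06 (0.01 with summed reads), with 2 of 21 in the lowest decile and Chac1 lowest at 35.5% from 22 against 62 reads.

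The genes encoded in mitochondrial DNA behaved unlike the nuclear genes of the same complexes. All 8 that were ranked were in the lowest decile, with a median relative log2 ratio of -1.31 (-0.82 as deposited). ND5 had 2547 TPM with SB431542 and 5025 without (27.6%), ND4 had 635 and 1206 TPM (28.7%), ND1 had 866 and 1602 TPM (29.4%) and COX1 had 598 and 880 TPM (37.1%). ND6, at 4345 against 8661 TPM, lies on the strand opposite to ND5 and its neighbours, and whether the counting used strand is not given in the sources used here. In all, mitochondrially encoded genes took 0.706% of the reads with SB431542 and 1.77% without. COX2, COX3, ATP8 and ND4L are listed at 0 in both libraries although cells with mitochondria use them, so the mitochondrial entries are incomplete as counted.

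The 20 lowest genes with at least 100 untreated reads ran from 5.58% to 30.3%, and 4 of them were collagens and 4 mitochondrially encoded. Mir6236, a short entry, was the lowest with 11 reads with SB431542 and 197 without. Galnt18 (21.9%), a glycosyltransferase, Maf (25.4%), a transcription factor, Gadd45g (27.2%), a stress and growth-arrest gene at 127 TPM with SB431542 and 254 without, Pkdcc (29.6%), a secreted kinase, and Jph2 (29.8%), a junctophilin, completed the set with Dkk2, Ccn2, Klf2, Ier5, Lox and Igfbp7. Dkk2, Maf (0.687 TPM with SB431542 and 1.47 without) and Col24a1 passed the minimum of 1 TPM only through the untreated library. The 20 highest ran from 95.7% to 98.4%, all close under the limit and with at most 394 untreated reads. They included Pdcd10 (243 against 247 reads, 98.4%), a scaffold of the CCM complex, Uqcrb (96.9%), a subunit of complex III, Ndufaf2 (95.8%), a complex I assembly factor, Cenpi (96.6%), a centromere protein, and Aadac (96.6%), a microsomal deacetylase. Cyp1a1, a detoxifying monooxygenase, had 6.50 TPM with SB431542 and 3.69 without, from 144 against 150 reads (96.0%, interval 75.8 to 121%). Ahrr, the repressor of the receptor that induces Cyp1a1, had 2.40 and 1.37 TPM, from 180 against 188 reads (95.7%, interval 77.6 to 118%). The other members of this set were Cpne8, Hdx, Zdhhc13, Zfp322a, Sf3b6, Dsg4, Gprin3, Zfp770, Tspan6, Tubgcp5, Galc, Nit2 and Tmem68. The intervals of Cyp1a1, Hdx, Uqcrb, Dsg4, Gprin3, Ndufaf2 and Tmem68 include the median share of 76.6%. Gprin3 (1.63 TPM with SB431542 and 0.921 without) and Galc (1.40 and 0.793 TPM) passed the minimum of 1 TPM only through the treated library.

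Transcript GC content moved with the share of reads and its part in these results was not tested apart from ranking within deciles of GC. Over 10599 genes with at least 100 untreated reads, which share the same pair of libraries, the share and the GC content of the longest transcript had Pearson r = -0.50 and Spearman rho = -0.54. The median share was 84.0% in the decile of lowest GC (up to 41.6% GC) and 65.9% in that of highest GC (at least 58.0% GC). Fibrillar collagens had a median GC of 58.0% and mitochondrially encoded genes of 36.4%, so that both ends of the GC range held a list of low share. Ranked within deciles of GC, 11 of 11 fibrillar collagens, 8 of 8 mitochondrial genes, 16 of 24 contractile, 21 of 41 TGF-β target, 8 of 14 BMP, 7 of 9 IGF and 10 of 19 immediate early genes were in the lowest decile, and none of the 41 TGF-β targets was in the highest. Collagen-modifying enzymes went from 10 to 7 of 18 in the lowest decile, and other matrix genes from 17 to 14 of 34. Their median relative log2 ratios went from -0.38 and -0.34 to -0.25 in both lists. The mitosis list had a median relative log2 ratio of 0.06 and 17 of 23 members at or above the median of their GC decile. All 20 highest genes and all 20 lowest genes were in the same outer decile within their GC decile. They were picked as the extremes of the same shares, so this was largely given in advance and says nothing on the part of GC. Of the 133 entries with a GC value and a relative log2 ratio of -1 or less, 116 were also that low within their GC decile. Length and depth moved the median less, to between 74.2% and 78.8% over deciles of length and between 74.1% and 77.4% over deciles of reads.

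**Figure D4:**
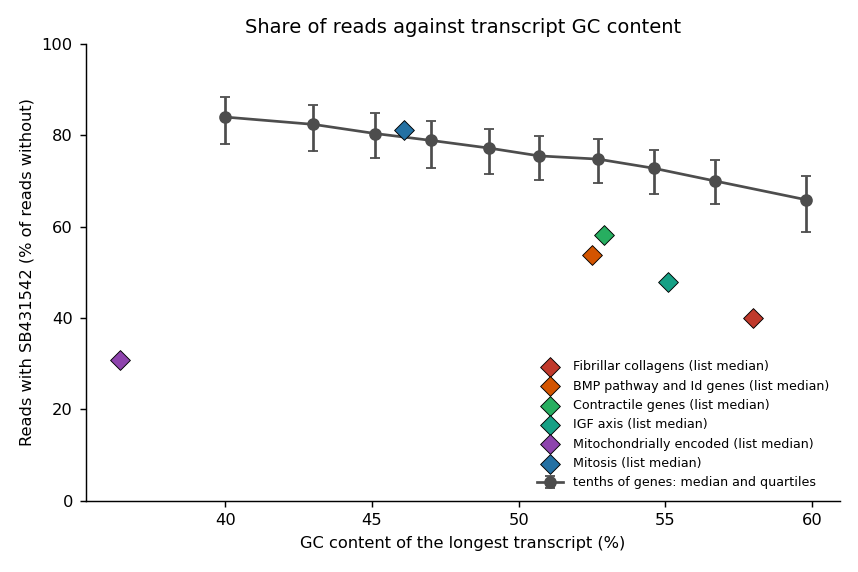
Reads with SB431542 as a percentage of the reads without it (vertical axis) against the GC content of the longest transcript (horizontal axis), as medians with quartile bars for 10 equal groups of genes with at least 100 untreated reads, and as list medians (diamonds). The median is 84.0% in the group of lowest GC and 65.9% in that of highest GC, and the collagen, BMP, contractile, IGF and mitochondrial lists lie below the line, whereas the mitosis list lies slightly above it.

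In Osr2 cells the same comparison gave another order of genes. The Osr2 library with SB431542 was shallow, with 1629521 reads against 14199154 without, a median share of 7.72% over 11239 ranked entries, and 673 of 10798 entries ranked in both pairs had 0 treated reads, so it stands apart and its values are less precise. The median percentile of the TGF-β target list was 7.38 in control cells and 21.7 in Osr2 cells, and that of other matrix genes was 10.2 in control cells and 15.6 in Osr2 cells. Fibrillar collagens were at 1.26 in control cells and 47.6 in Osr2 cells, with Col3a1 at 10.5 and Col5a3 at 84.8 in Osr2 cells. Contractile genes were at 7.76 in control cells and 23.2 in Osr2 cells, and IGF axis genes at 2.61 and 21.6. Immediate early genes (7.09 in control cells, 82.1 in Osr2 cells), BMP genes (4.99 and 78.6) and mitochondrially encoded genes (0.624 and 99.3) were near opposite ends of the ranking. Share and transcript GC content had Pearson r = 0.09 in the Osr2 pair, over genes with at least 100 untreated reads in both pairs. The median share in Osr2 cells was 7.32% in the decile of lowest GC and 12.3% in that of highest GC, the other direction than in control cells. The difference between the pairs, and the part of GC in it, was not tested, since each pair has 1 library per group.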

How the data were processed

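RNA-seq was done on 4 libraries, 1 per group. Per the labels' protocols, ISOGEN was used to extract RNA, and poly(A) selection and a directional kit to make the libraries. Per the series design text, the authors mapped reads to GRCm38.p6 with STAR 2.7.3a, counted them per gene with featureCounts 2.0.0 on an Ensembl release 75 gene model and converted them to TPM. The deposited values are TPM, and the listed entries add up to 453128 with SB431542 and 346607 without, not to a full scale.

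Values of 26 entries with date-like names and of 469 entries sharing 140 symbols were left out, and 4 columns of a second table that match no sample were not used. TPM is a whole number of reads divided by a gene length, so the 4 values of an entry were searched for the smallest length that made all of them whole, within 0.0001 per read; this worked for all 18883 entries above 0, and 345 of 463 small RNA genes had the RefSeq length. Totals are lower limits because a factor common to an entry's 4 values cannot be seen. The share of treated to untreated reads does not depend on it. In the Osr2 library with SB431542, the TPM worth of 1 read was set by taking the highest TPM ratio of that pair as equal reads. In the other libraries it came from small RNA genes of known length. Read numbers and shares of the Osr2 pair rest on that choice. Exact 95% intervals of shares treat the 2 read numbers as separate Poisson counts, a choice made after seeing the data, and like the limit of 3 reads cover counting error only. With 1 library per group there are no p-values.

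The members, the 40 gene lists and the alternatives were chosen with earlier results of these data known. The rule for named genes took the 20 lowest and 20 highest ratios among entries with at least 100 untreated reads, the inhibited receptors, Smads, feedback genes, vector factors and fibrillar collagens, Ccn2, Tgfbi, Acta2, Tagln, Cdh1, Epcam, Nanog and 1 further gene that is not reported here, and the 4 lowest and 2 highest of each other list; of these last the text gives a selection, and that selection and other named genes were chosen after their values were seen. GC content came from GENCODE transcripts and promoters and gene positions from RefSeq GRCm38.p6. The scripts used Python 3.11.15, numpy 2.4.6, pandas 2.3.3 and scipy 1.17.1, and the recovery of reads was tested on simulated data.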

Additional observations from a re-analysis of the deposited data

Results flagged for a closer look

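The median relative log2 ratio of SB431542 over none lay on opposite sides of the median gene in the 2 kinds of cell for 21 of 40 gene lists. The 6 given here are those with a median percentile of at most 25 in one kind of cell and at least 75 in the other. With 1 library per group these differences were not tested, and the Osr2 library with SB431542 is shallow. The 2 scales also differ in reach. A relative log2 ratio cannot pass 0.39 in control cells, while the median share of 7.72% in Osr2 cells leaves more room above the median gene. Medians cover the members measured in each pair. These were fewer in Osr2 cells for cytokine (13 against 16), lineage (12 against 14) and BMP genes (13 against 14). Over 9174 genes the shares of the 2 pairs had Spearman rho = -0.42, so opposite sides are not particular to these lists. Smad genes had -0.15 in control cells and 1.81 in Osr2 cells. BMP pathway and Id genes had -0.51 in control cells and 1.14 in Osr2 cells. Immediate early genes had -0.42 in control cells and 1.31 in Osr2 cells. Cytokine genes had -0.26 in control cells and 2.17 in Osr2 cells, and lineage genes of fat, cartilage, bone and muscle had -0.38 and 1.29. Mitochondrially encoded genes had -1.31 in control cells and 3.32 in Osr2 cells.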

How the results depend on the processing

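The number of genes with a relative log2 ratio of -1 or less was 149 and moved with the treatment of low values. It was 50 with a minimum of 5 TPM, 653 with no minimum, 80 after adding 1 TPM, 21 after adding 5 TPM, 49 among entries with at least 100 untreated reads, 60 on the deposited TPM scale and 1540 with the treated reads subtracted. It was 132 relative to summed reads, 155 with repeated symbols kept, 142 without mitochondrially encoded genes and 121 within deciles of transcript GC. No gene reached a relative log2 ratio of 1 under the other settings, which the limit forbids, and 2067 did with that subtraction. The median share stayed at 76.6% with repeated symbols kept. Of 728 list counts, list median percentiles and promoter motif shares under alternative settings, 564 lay close to the reported value and 164 did not. Close meant within 1.5 times a reported count or 10 percentile points of a reported median. For motif shares it meant within the binomial counting error of the reported share. The median percentile of 11 of the 40 lists crossed 50 under some setting, all with reported medians between 35.4 and 65.8. With no minimum level these included macrophage (48.5), endothelial (40.3), neural (61.0) and keratinocyte (62.4) markers, with a minimum of 5 TPM epithelial (69.9) and unfolded protein response genes (54.5), and within GC deciles histones (64.7). Among genes with at least 100 untreated reads, CAGACA was found in 16.4% of windows in the lowest decile and 17.0% in the highest, and TGANTCA in 4.06% and 1.63%. The settings without mitochondrially encoded genes and within GC deciles were added after the data were seen. No paired analysis was possible because each group has 1 library. With no replicate there is no estimate of spread, and low entries near 1 TPM rest on few reads.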

Other observations

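Genes linked to the aryl hydrocarbon receptor were looked at after Cyp1a1 and Ahrr had been seen among the highest ratios, so they are given as values only. Tiparp, a target of the receptor, had 21.8 TPM with SB431542 and 13.1 without, a share of 90.6% of the untreated reads. Cyp1b1, another target, had 65.7 TPM with SB431542 and 51.9 without, a share of 69.0%, and Nqo1 had 9 reads in each library, below the minimum level. Ahr, the receptor itself, had 3.21 TPM with SB431542 and 3.63 without, a share of 48.2%, and its partner Arnt had 79.5%.

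Genes with Zfp names, most of which encode zinc finger proteins, were also chosen after their values were seen. Of 308 ranked, 46 were in the highest decile and 20 in the lowest, with a median share of 78.8% and a median transcript GC content of 44.8%. Ranked within deciles of GC, 20 were in the highest decile and the median percentile was 47.9, against 58.4 without regard to GC.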
